A study of Mus musculus with 8 samples.

Results

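The genes described here are 30 interferon-stimulated genes, chosen by symbol from a list of antiviral effectors, sensors, transcription factors and GTPases that interferons are known to induce. All 30 were among the 24421 gene symbols of the count table. They were followed in 8 RNA-seq libraries, 4 wild-type and 4 Slc7a5 knockout. Each came from CD4+ T cells that were sorted out of the enzyme-digested knee; all mice were male, were 16 weeks old and had antigen induced arthritis. Slc7a5 encodes the light chain of a transporter of large neutral amino acids; the sources used here give neither the strain nor whether the gene was deleted in T cells alone or in every cell. Nothing in the labels says that each library came from its own mouse. The p-values then measure only how far these libraries differ, which may in part be technical. Values by library are always given in the order of replicates 1 to 4.

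Interferons signal through JAK kinases and STAT proteins. Type I interferons act on the IFNAR receptor and lead to a complex, with STAT2 and IRF9 among its parts, that binds the interferon-stimulated response element (ISRE). Interferon gamma, the cytokine of Th1 cells, acts on the IFNGR receptor and is known for genes that carry the gamma-activated site (GAS). The Ifit, Oas and Mx genes are classical targets of type I interferon and encode antiviral proteins. The guanylate-binding proteins (Gbp) and the immunity-related GTPases (Irg: here Igtp, Ifi47 and Iigp1) are known for their strong response to interferon gamma and attack the vacuoles of intracellular pathogens, although both kinds of interferon can induce many genes of either group.

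The libraries held 18837650 to 36436923 counts. Knockout replicate 4 stood apart from the others: it had 5221 genes with a count, against 7684 to 10139 in the other 7, and its Spearman correlations across genes with them ran from 0.489 to 0.544. For Slc7a5 itself (chromosome 8, 121881146 to 121907686), the wild-type libraries had 385, 194, 410 and 0 counts and every knockout library had 0. The gene is thus at 0 in wild-type replicate 4 too, and which part of it was deleted is not given. The T cell chain Cd3e was at 330 to 554 CPM (counts scaled to the TMM effective library size) in all 8 libraries, and Cd4 was at 1.78 CPM in knockout replicate 4 and at 344 to 570 CPM in the rest. The 11 T cell markers found summed to 9303 to 12640 CPM in wild type and 7531 to 9767 CPM in knockout, and 10 of the 11 had lower estimates in knockout. Markers of monocytes, macrophages and dendritic cells, of which 9 of 19 listed were tested and 6 of those had higher estimates in knockout, summed to 1282 to 3108 CPM in wild type and 1956 to 10892 CPM in knockout; Adgre1, Fcgr1 and Mrc1 of that list had at most 3 counts in any library. Siglech, a marker of plasmacytoid dendritic cells, which make type I interferon, ranged from 5.87 to 113 CPM in wild type and from 0 to 175 CPM in knockout; the 10 markers of that list, which include the members Bst2 and Irf7, summed to 280 to 756 and 203 to 717 CPM. Summed markers of B cells reached at most 56.0 CPM in any library, those of neutrophils 143, of CD8 T or natural killer cells 123, of synovial fibroblasts 157 and of endothelial cells 158 CPM. The fibroblast list includes Thy1, which the T cell list also holds. The part of these other cells in the levels below was not tested. In bulk libraries, fewer cells of a kind and less RNA per cell cannot be told apart.

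The response elements can be read in the promoters of the members. RefSeq promoter windows of GRCm38.p6 (250 bases before to 50 bases after an annotated start) were found for 22 of the 30 members. The ISRE core was searched on both strands as GAAA, any 2 bases, GAAA (TTTC, any 2 bases, TTTC on the other strand), and the GAS as TTCNNNGAA, which reads the same on both strands. These letters overlap in part, since neighbouring ISRE matches may share a GAAA. An ISRE core was present for 14 of the 22 members (63.6%), against 4.15% of tested genes with a window and 3.44% of all 32851 windows. A GAS was present for 7 of 22 members (31.8%), against 8.52% of tested genes and 8.30% of all windows. A match is a description of the letters and does not show binding.

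The stretches below hold matches in members of both contrasted groups and in Isg15. They come from the type I targets Ifit1, Ifit3 and Oas3, from Isg15, and from the GTPases Gbp2, Gbp3, Gbp7 and Igtp. All were picked among windows with an ISRE core, so sharing it follows from the choice. A relation between motif and level was not tested. Capitals mark ISRE cores and GAS matches, each sequence is read 5′ to 3′ on the strand of its gene, and coordinates are those of GRCm38.p6 (mm10).
Ifit1 (chr19:34640770-34640828, + strand): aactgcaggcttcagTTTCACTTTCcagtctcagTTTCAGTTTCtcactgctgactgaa
Ifit3 (chr19:34583358-34583431, + strand): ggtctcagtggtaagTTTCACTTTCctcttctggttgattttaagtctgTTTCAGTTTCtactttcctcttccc
Oas3 (chr5:120777710-120777749, - strand): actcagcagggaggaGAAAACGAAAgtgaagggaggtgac
Isg15 (chr4:156200860-156200911, - strand): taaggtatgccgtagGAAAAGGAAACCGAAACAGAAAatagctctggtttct
Gbp2 (chr3:142620589-142620628, + strand): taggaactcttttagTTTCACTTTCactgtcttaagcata
Gbp3 (chr3:142559984-142560029, + strand): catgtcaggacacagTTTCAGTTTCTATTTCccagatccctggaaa
Gbp7 (chr3:142530215-142530307, + strand): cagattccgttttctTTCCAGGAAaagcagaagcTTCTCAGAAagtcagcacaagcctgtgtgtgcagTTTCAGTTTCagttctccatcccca
Igtp (chr11:58199496-58199546, + strand): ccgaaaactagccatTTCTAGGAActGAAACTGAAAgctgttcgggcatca

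Ifit1 and Ifit3 each carried a pair of ISRE cores, starting at −104 and −85 and at −156 and −122 (bases from the start site), and Isg15 carried 3 overlapping ones, at −78, −72 and −66. Gbp2 held the same TTTCACTTTC as the distal element of both Ifit genes. Bst2, Gbp5, Gbp7, Igtp and Oas1a held both motifs: in Igtp the GAS began at −45 and the ISRE core at −34, and in Gbp7 the GAS matches began at −106 and −87 and the ISRE core at −53. By group, an ISRE core was found for 4 of 7 type I targets with a window (Ifit1, Ifit3, Oas1a and Oas3) and for 5 of 6 GTPases (all but Ifi47). A GAS was found for 2 of 7 type I targets (Ifit2 and Oas1a) and 3 of 6 GTPases (Gbp5, Gbp7 and Igtp).

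**Figure D1:**
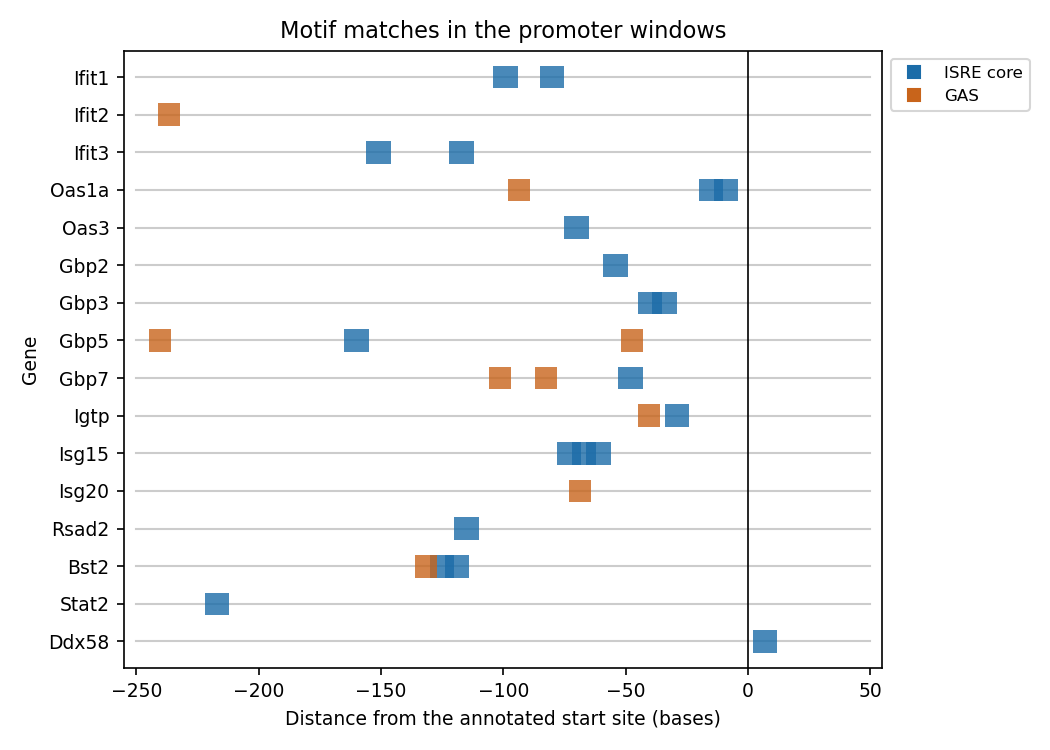
Positions of ISRE cores (blue) and GAS matches (orange) relative to the annotated start site, in bases, for the members with at least 1 match. The ISRE cores start between −156 and −14 except those of Gbp5 (−165), Stat2 (−222) and Ddx58 (just after the start). Bst2, Gbp5, Gbp7, Igtp and Oas1a carry both motifs.

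The clearest feature of the members was the gap in level between the GTPases and the type I targets, in both genotypes. Per kilobase of exon, which allows genes to be compared, the 7 GTPases together stood at 848 ± 163 CPM per kilobase in wild type and 644 ± 223 in knockout (mean ± SD, n = 4 each). The 10 type I targets together stood at 52.2 ± 21.1 and 88.2 ± 86.6 CPM per kilobase. In every library the GTPases were the higher group: their lowest value was 377 CPM per kilobase (knockout replicate 1), and the highest value of the type I targets was 207 (knockout replicate 2). Igtp alone averaged 402 CPM per kilobase over the 8 libraries and was the highest of the 30 members on this scale, followed by Bst2 at 113 and Gbp7 at 100.1. The highest of the 10 type I targets was Ifit3, at 23.4 CPM per kilobase. As a sum, the gap holds for these members and not for the wider lists followed further below, which differ in size. Averaged over the 8 libraries, the 37 further type I targets found summed to 1474 CPM per kilobase and the 13 further GTPases to 1308. The 10 and 7 members summed to 70.2 and 746. Divided by the number of genes, the GTPases were thus higher in the wider lists too, by less than among the members. Ifitm2, a further type I target, was at 339 CPM per kilobase.

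A library was taken to hold a gene at 10 or more counts, a limit chosen after the values were seen. The wild-type libraries held 5, 5, 7 and 4 of the 10 type I targets, and the knockout libraries 3, 4, 5 and 0. The GTPases were held as 6, 6, 7 and 6 of 7 in wild type and 6, 6, 6 and 3 in knockout. Of the 30 members, 10 had at least 1 count in all 8 libraries, and they included 4 GTPases and 0 type I targets. Among the 23 members that passed the filter on low counts that share was 43.5%, close to the 44.6% of all 8489 tested genes. Knockout replicate 4 held 10 of the 23 tested members (43.5%), beside 45.0% of all tested genes there. Of all tested genes, the wild-type libraries held 95.6%, 96.0%, 95.3% and 80.7%, and the knockout libraries 84.4%, 72.2%, 91.0% and 45.0%. For the tested members these shares were 95.7%, 87.0%, 100% and 78.3% in wild type and 78.3%, 91.3%, 100% and 43.5% in knockout.

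**Figure D2:**
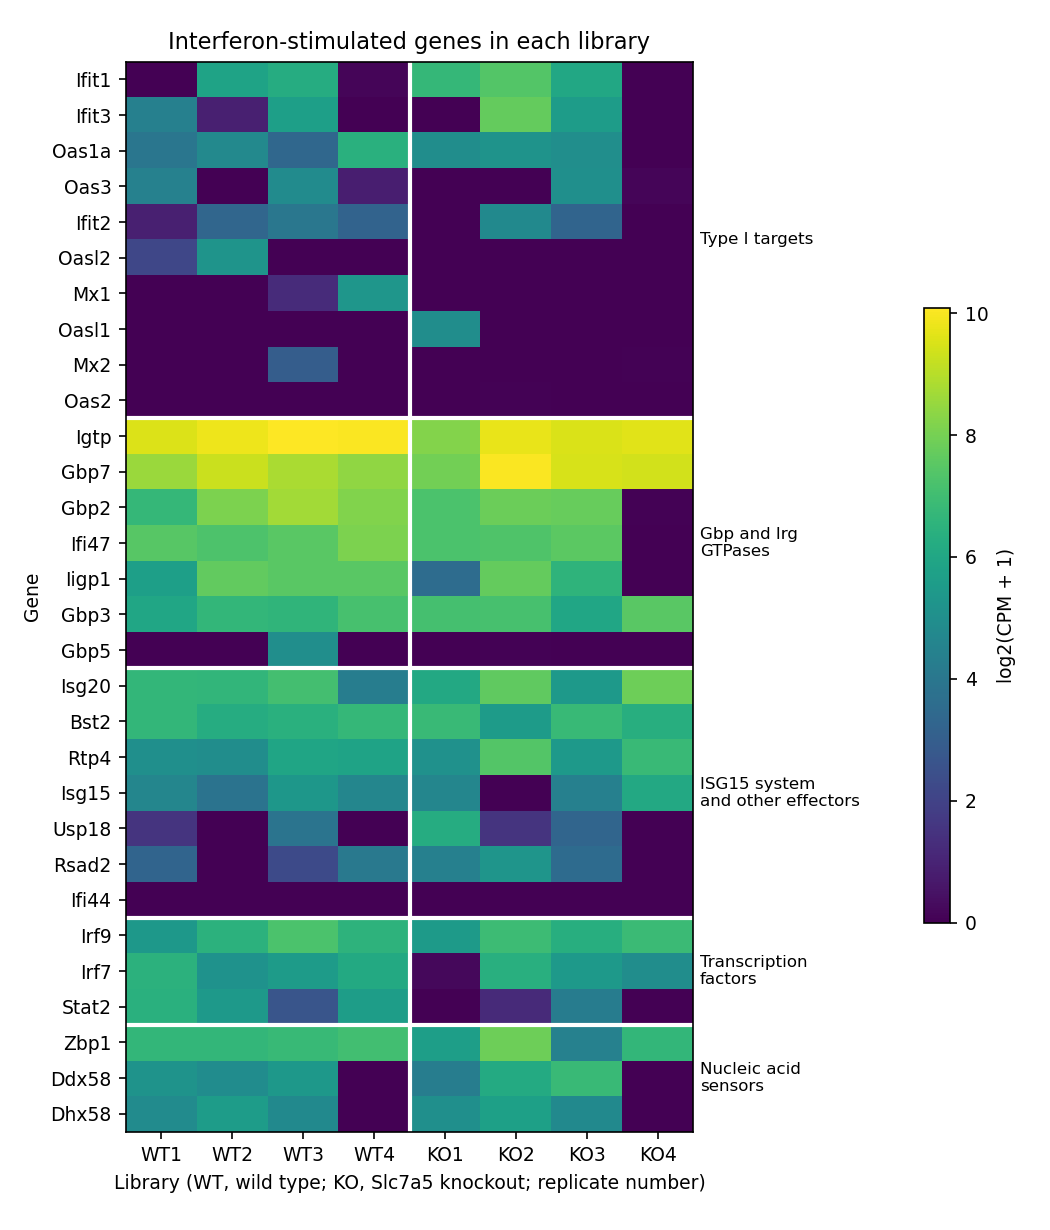
Level of each of the 30 genes, as log2(CPM + 1), in the 4 wild-type and 4 knockout libraries, grouped by role. Igtp and Gbp7 are high in every library, the type I targets appear in some libraries and not in others, and many genes are at 0 in knockout replicate 4.

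The comparison of genotypes asks whether loss of Slc7a5 altered the interferon program of these cells. No member passed the test. Of the 30 members 23 could be tested, and 0 passed at an adjusted p under 0.05 in edgeR's quasi-likelihood test, beside 0 of 8489 genes (0.0%). At an unadjusted p under 0.05 there were 0 of 23 members, against 326 of all genes (3.84%; 1.87% higher and 1.97% lower in knockout). The smallest unadjusted p of a member was 0.127, for Igtp, and the adjusted p of each was 0.9999. Estimates were higher in knockout for 12 members and lower for 11, with a median log2 fold change (knockout over wild type, the estimate given below for each gene) of 0.08 beside −0.12 over all tested genes. In 0 of the 23 did the genotypes separate without overlap, as they did for 6.14% of all tested genes. The standard error was above 1 on the log2 scale for 15 of the 23, and a missed threshold does not show that the genotypes were alike. Without knockout replicate 4, 0 of the 23 members and 748 of 9334 genes (8.01%) had an unadjusted p under 0.05 in edgeR.

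The Ifit proteins bind foreign RNA and block its translation. Their genes lie in one stretch of chromosome 19, Ifit2 from 34550550 to 34576534, Ifit3 from 34583119 to 34588982 and Ifit1 from 34640889 to 34650009. Ifit1 measured 0, 56.4, 75.0 and 0.088 CPM across the wild-type libraries, against 105, 166, 65.0 and 0 CPM across the knockout ones. Ifit3 measured 20.2, 0.87, 51.3 and 0 CPM across the wild-type libraries, against 0, 208, 46.9 and 0 CPM across the knockout ones. Both genes were thus absent from some libraries of either genotype and peaked in knockout replicate 2. Their log2 fold changes were 1.35 (SE 2.16) and 1.81 (SE 2.52), and without knockout replicate 2 that of Ifit3 was −0.23. Ifit2 measured 0.86, 9.18, 15.2 and 8.34 CPM across the wild-type libraries, against 0, 26.9, 8.64 and 0 CPM across the knockout ones, with the groups overlapping (estimate 0.08, SE 2.39). Reads of Ifit3 and its near-identical neighbour Ifit3b, and of Ifit1 and the overlapping Ifit1bl1, may be shared, as may those of Oas1a and its copy Oas1g.

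The Oas enzymes make a short adenylate chain that activates RNase L. Oas1a, found in 7 of 8 libraries, measured 14.8, 26.0, 9.26 and 83.7 CPM across the wild-type libraries, against 29.7, 35.5, 30.8 and 0 CPM across the knockout ones (estimate −0.48, SE 1.79). Leaving out wild-type replicate 4, its highest library, turned the estimate to 0.53, and without knockout replicate 4 it was −0.07. Oas3 measured 20.6, 0, 28.4 and 0.79 CPM across the wild-type libraries, against 0, 0, 31.3 and 0.10 CPM across the knockout ones. Oas3 was therefore clearly present in 2 wild-type libraries and 1 knockout library, and its log2 fold change of −0.67 (SE 2.80) moved to −8.30 without that knockout library, replicate 3. Oas2 had 1 count in all, in knockout replicate 2. Oasl2, an OAS-like protein, was at 3.39, 36.7, 0 and 0 CPM in wild type and at 0 in every knockout library. Its relative Oasl1 had 718 counts in knockout replicate 1 and 0 in the other 7 libraries. The Mx genes encode dynamin-like antiviral GTPases. Mx1 had 44 counts in wild-type replicate 3, 870 in replicate 4 and 0 elsewhere, and Mx2 had 224 counts in wild-type replicate 3 and 1 in knockout replicate 4. Oas2, Oasl1, Oasl2, Mx1 and Mx2 did not pass the filter on low counts.

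Oasl2 was the only member called by any tool run. DESeq2, run without that filter, gave it an adjusted p of 1.15e-10, 1 of 25 members with an adjusted p there, while it called 387 of 10659 genes (3.63%); at an unadjusted p under 0.05 it also had 1 of 29 members, against 7.98% of all genes. That call rests on wild-type replicates 1 and 2, which held 122 and 1017 counts, against 0 counts in the other 2 wild-type libraries as well as in knockout. Without a filter edgeR placed Mx1, Oasl1 and Oasl2 at an unadjusted p under 0.05, 3 of 29 members against 10% of all genes with a count. Igtp was at that level in limma voom, together with Stat2 (background 12.1%), in voom with quality weights, together with Zbp1 (8.19%), and with a replicate block (3.85%). So was Gbp7 without knockout replicate 1 (7.99% of all genes there) and Stat2 without knockout replicate 3 (10.1%), each 1 of 23 members.

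Summed over the 10 type I targets, the wild-type libraries were at 59.9, 129, 187 and 131 CPM and the knockout libraries at 165, 436, 183 and 0.16 CPM. The wild-type values all lie between the highest and the lowest knockout library. The means were 127 ± 52.2 and 196 ± 180 CPM (SD, n = 4 each), a difference of 68.9 CPM that became −11.2 CPM without knockout replicate 2 and 134 CPM without knockout replicate 4. Knockout replicates 1, 2 and 4 had the highest summed levels of the monocyte, macrophage and dendritic cell markers (8769, 9969 and 10892 CPM) and included both extremes of the type I targets. Cd74, the MHC class II invariant chain, made up 4636, 5926 and 7352 CPM of these sums. Without it they were 4133, 4043 and 3539 CPM, against 348 to 1139 CPM in the other 5 libraries. The remainder still includes the class II chains H2-Ab1, H2-Aa and H2-Eb1.

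Among the GTPases, Igtp (Irgm3), an IRG protein that guards the cell's own membranes, had the highest CPM of all members. It measured 761, 918, 1092 and 1036 CPM across the wild-type libraries, against 296, 870, 725 and 802 CPM across the knockout ones. Knockout replicates 2 and 4 lay within the wild-type range and replicates 1 and 3 below it. The estimate was −0.50 (SE 0.30), −0.25 without knockout replicate 1 and 0.04 with an offset for transcript GC content. Ifi47 (Irg47), another IRG protein, measured 177, 155, 180 and 277 CPM across the wild-type libraries, against 148, 157, 187 and 0 CPM across the knockout ones. Knockout replicates 2 and 3 lay within the wild-type range and replicate 1 just below it (estimate −0.68, SE 1.30, and −0.28 without replicate 4). Iigp1, which helps to break down the vacuole of parasites, measured 51.2, 201, 180 and 180 CPM across the wild-type libraries, against 10.8, 210, 94.4 and 0 CPM across the knockout ones. Its lowest wild-type library, replicate 1, lay below 2 of the knockout libraries (estimate −0.96, SE 1.46). The estimate for Iigp1 was −2.15 without knockout replicate 2, −0.59 without replicate 1 and −0.55 without replicate 4.

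The Gbp proteins coat the vacuoles and membranes of pathogens. On chromosome 3 their genes follow each other in the order Gbp5 (142496934 to 142522344), Gbp7 (142530336 to 142550151), Gbp3 (142560016 to 142573213) and Gbp2 (142620663 to 142638008). Gbp7 measured 379, 631, 451 and 345 CPM across the wild-type libraries, against 247, 1043, 723 and 676 CPM across the knockout ones. In 3 knockout libraries Gbp7 lay above all wild-type libraries and in replicate 1 below them (estimate 0.57, SE 0.38). Gbp3 measured 62.6, 102, 95.6 and 142 CPM across the wild-type libraries, against 136, 142, 62.4 and 179 CPM across the knockout ones (0.37, SE 0.53). Its groups overlapped. Gbp2 measured 106, 273, 418 and 288 CPM across the wild-type libraries, against 151, 223, 213 and 0.052 CPM across the knockout ones, where the last value is a single count in replicate 4 (estimate −0.89, SE 1.24, and −0.49 without that library). Gbp5, whose protein promotes assembly of the NLRP3 inflammasome, had 1010 counts in wild-type replicate 3, 1 count in knockout replicate 2 and 0 elsewhere. Wild-type replicate 3 was also the library with the most Gbp2 counts, 13582.

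Summed over the 7 GTPases, the wild-type libraries were at 1537, 2280, 2448 and 2268 CPM and the knockout libraries at 989, 2646, 2004 and 1657 CPM. The ranges overlapped, with the highest and the lowest library both in knockout. The means were 2133 ± 406 and 1824 ± 691 CPM (SD, n = 4 each), and the difference of −309 CPM shrank to −30.7 CPM without knockout replicate 1. The median log2 fold change was −0.59 over the 6 tested GTPases and 0.08 over the 5 tested type I targets. That gap of 0.67 was 0.20 with the GC offset, and was −0.17 in limma voom. Over the same 5 genes the type I median turned to −0.18 with library totals, −1.84 in limma voom and −0.45 with quality weights. It was −0.12 with the replicate block and −0.19 with the GC offset. In DESeq2 and without a filter all 10 type I targets entered, and the median over these 10 was −0.20 and −0.21. There the 5 genes each kept their direction, with Ifit2, the middle one, at 0.09 and 0.07. Without knockout replicate 4 the medians were 0.49 for the type I targets and −0.38 for the GTPases. The GTPase median stayed negative under every alternative run, as did the median of all genes in the fit except with the GC offset (0.16). The GTPase and all-gene medians were −0.59 and −0.12 in the main fit. They were −0.83 and −0.68 with the replicate block, and −0.54 and −0.36 with quality weights. Of the summed CPM of the 2 groups the type I targets made up 3.75%, 5.36%, 7.11% and 5.47% in wild type and 14.3%, 14.2%, 8.35% and 0.0095% in knockout. In 3 knockout libraries their share lay above all wild-type libraries and in replicate 4 below them.

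**Figure D3:**
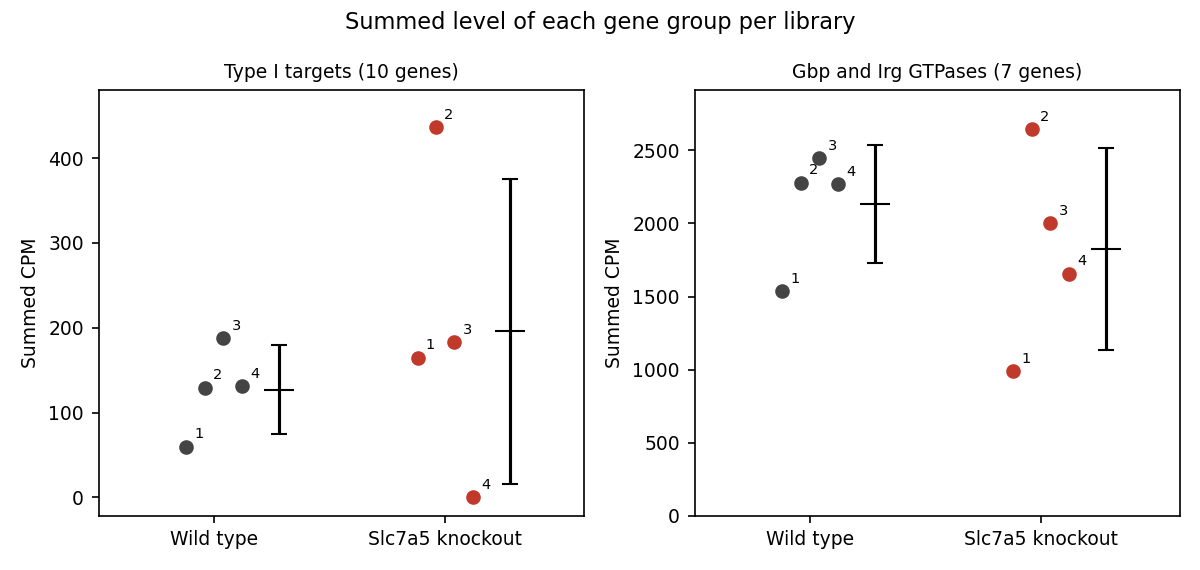
Summed CPM of the 10 type I targets (left) and the 7 Gbp and Irg GTPases (right) in each library; points are libraries with their replicate number, and the bar beside them is the mean ± SD. The wild-type type I sums, 59.9 to 187 CPM, lie between the knockout extremes of 0.16 and 436 CPM, and the axes of the panels differ.

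The ISG15 system and further effectors were mixed. Isg15, a ubiquitin-like modifier, measured 24.0, 13.3, 39.1 and 24.1 CPM across the wild-type libraries, against 23.8, 0, 20.2 and 67.5 CPM across the knockout ones. It was the reverse of the Ifit genes in the knockout libraries, absent from replicate 2 and highest in replicate 4 (estimate 0.15, SE 1.79, and −0.80 without replicate 4). Usp18, the protease that removes Isg15 and restrains the type I receptor, measured 1.83, 0, 13.8 and 0 CPM across the wild-type libraries, against 75.0, 1.89, 8.76 and 0 CPM across the knockout ones. Its estimate of 2.45 (SE 2.78) was −0.14 without knockout replicate 1. Bst2 (tetherin), which holds budding virus at the membrane, measured 103, 76.1, 84.6 and 103 CPM across the wild-type libraries, against 115, 45.5, 111 and 79.2 CPM across the knockout ones. Bst2 was found in all 8 libraries and its groups overlapped (estimate −0.07, SE 0.62).

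Isg20, an exonuclease that degrades RNA, measured 103, 98.6, 134 and 18.6 CPM across the wild-type libraries, against 66.8, 195, 41.5 and 232 CPM across the knockout ones (estimate 0.60, SE 0.73). Rtp4, a chaperone of receptors with antiviral activity, measured 31.2, 30.3, 60.6 and 56.5 CPM across the wild-type libraries, against 33.7, 167, 42.9 and 113 CPM across the knockout ones (0.999, SE 0.90). Both were highest in knockout replicates 2 and 4, and neither separated the genotypes. Rsad2 (viperin), which makes a chain-terminating nucleotide, measured 8.64, 0, 3.88 and 15.8 CPM across the wild-type libraries, against 20.1, 37.2, 10.6 and 0 CPM across the knockout ones (1.26, SE 2.36). It was missing from wild-type replicate 2 and knockout replicate 4. Ifi44 had 0 counts in all 8 libraries.

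Of the transcription factors, Stat2 had the largest estimate of all tested members. Stat2, a part of the type I complex, measured 83.8, 42.8, 5.39 and 47.6 CPM across the wild-type libraries, against 0, 1.28, 17.9 and 0 CPM across the knockout ones. Knockout replicate 3 lay above wild-type replicate 3, so the groups overlapped (estimate −3.23, SE 2.31, unadjusted p = 0.188 in edgeR). Without knockout replicate 3 the estimate was −6.70. Irf9, the DNA-binding part of that complex, measured 40.3, 89.6, 152 and 91.4 CPM across the wild-type libraries, against 43.9, 119, 78.4 and 115 CPM across the knockout ones. Irf9 was present in every library and its means nearly coincided, at 93.2 ± 45.6 and 89.2 ± 35.3 CPM (SD, n = 4 each; log2 fold change −0.06, SE 0.67). Irf7, which amplifies type I interferon production, measured 89.2, 34.0, 45.2 and 69.2 CPM across the wild-type libraries, against 0.17, 82.4, 42.3 and 29.9 CPM across the knockout ones (−0.62, SE 1.38). Knockout replicate 1 held 4 counts, and without it the estimate was −0.20.

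Of the sensors, Zbp1, which binds Z-form nucleic acid and can trigger cell death, measured 102, 103, 110 and 130 CPM across the wild-type libraries, against 49.1, 233, 20.8 and 100.4 CPM across the knockout ones. The wild-type libraries lay close together and the knockout libraries on both sides of them (estimate −0.14, SE 0.70). Ddx58, which encodes the RNA sensor RIG-I, measured 34.9, 29.2, 41.2 and 0 CPM across the wild-type libraries, against 18.2, 70.6, 113 and 0 CPM across the knockout ones (0.94, SE 2.05). Dhx58, the related LGP2, measured 28.2, 47.3, 26.8 and 0 CPM across the wild-type libraries, against 31.7, 51.7, 26.4 and 0 CPM across the knockout ones (0.10, SE 2.11). Both helicase genes were missing from replicate 4 of each genotype and present in the other 6 libraries.

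**Figure D4:**
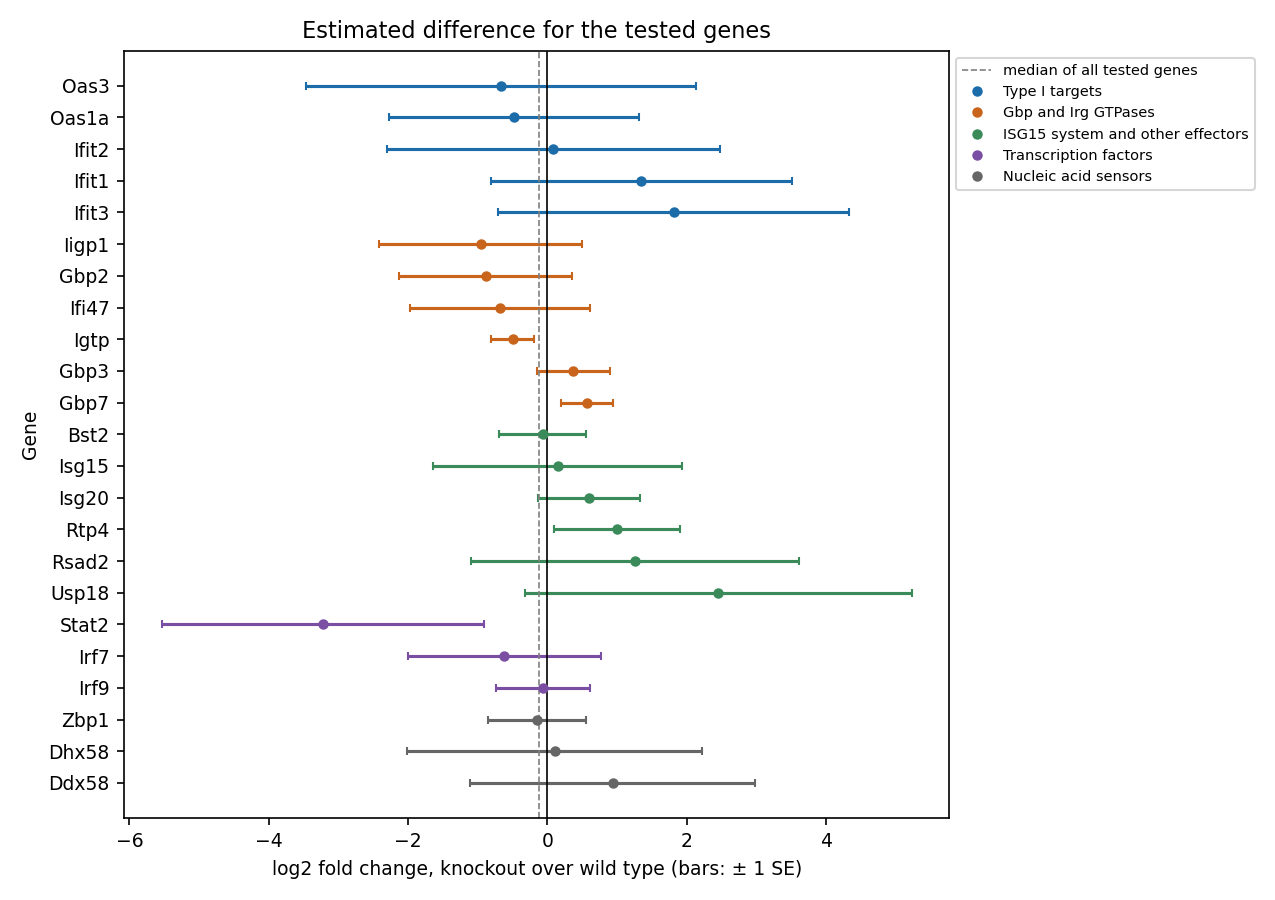
Log2 fold change (knockout over wild type, bars ± 1 SE) of the 23 tested genes, coloured by role; the dashed line is the median of all tested genes, −0.12. The standard errors are smallest for Igtp (0.30) and Gbp7 (0.38) and lie between 1.79 and 2.80 for the 5 type I targets.

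Upstream of these genes, ligands other than Ifng were not seen: 1 of the 10 listed interferon genes had counts. Ifng measured 171, 223, 144 and 104 CPM across the wild-type libraries, against 21.2, 0, 77.4 and 0 CPM across the knockout ones, so all knockout libraries lay below all wild-type libraries, as for 4.62% of tested genes. Its estimate of −2.70 (SE 1.82) missed the threshold. Knockout replicates 2 and 4 both had 0 Ifng counts. Their summed GTPase levels were 2646 CPM, the highest of all libraries, and 1657 CPM, within the wild-type range. In replicate 4 only 3 GTPases had 10 or more counts. Knockout replicates 1 and 3, at 21.2 and 77.4 CPM of Ifng, had 989 CPM, the lowest of all libraries, and 2004 CPM. A link between Ifng and the GTPase level was not tested. Of 6 listed receptor chains 5 were tested and 0 passed. Ifngr1 was at 953 to 1863 CPM and Ifnar1 at 469 to 1081 CPM over the 8 libraries. Their partner chains Ifngr2 and Ifnar2 ranged from 29.1 to 121 CPM and from 0 to 49.2 CPM. Il10rb, shared with the lambda interferon receptor, ranged from 0 to 193 CPM.

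All 9 listed kinases and transcription factors were tested and 0 passed. Jak1 was at 421 to 568 CPM in wild type and 299 to 685 CPM in knockout. It was present in every library, and Tyk2, the kinase of the type I receptor, ranged from 0 to 54.4 CPM. Jak2 was at 66.9 to 106 CPM in the wild-type and 143 to 305 CPM in the knockout libraries, without overlap, as for 1.52% of tested genes in that direction (estimate 1.28, SE 0.42, unadjusted p = 0.00960, adjusted p = 0.637 in edgeR). Over the 8 libraries Irf1 ranged from 44.4 to 189 CPM, Irf2 from 51.7 to 577, Irf3 from 0 to 165, Irf5 from 0 to 51.2 and Irf8 from 13.0 to 151 CPM. Of 8 listed inhibitors 7 were tested and 0 passed at either threshold. Socs1, which blocks JAK kinases, was at 44.8 to 138 CPM in wild type and 57.4 to 164 CPM in knockout, and Socs3 at 33.1 to 80.7 and 0 to 88.3 CPM. Ptpn6 (84.3 to 260 CPM), Ptpn2 (35.9 to 262 CPM), Pias1 (83.95 to 206 CPM) and Ptpn11 (0.10 to 45.6 CPM) overlapped between genotypes as well.

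Of 13 further Gbp and Irg genes 12 were tested, 0 passed at an adjusted or an unadjusted p under 0.05, and the median log2 fold change was −0.06. The highest by CPM were Tgtp2, at 666 to 1655 CPM in wild type and 918 to 1680 CPM in knockout, and Tgtp1, at 534 to 1316 and 731 to 1077.6 CPM, near-identical copies between which reads may be split. Gbp4 followed at 194 to 536 and 351 to 1264 CPM, and Gbp6 at 229 to 594 and 296 to 692 CPM. Of 40 further type I targets 34 were tested, 0 passed and 1 had an unadjusted p under 0.05 (2.94%, beside 3.84% of all genes), with a median of −0.07. That gene was Ifi203, a nuclear DNA-binding protein, at 67.7 to 121 CPM in wild type and 147 to 365 CPM in knockout (adjusted p = 0.637 in edgeR); it is named after its values were seen.

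The highest further type I targets by CPM were Sp100 (219 to 494 CPM over the 8 libraries), Samhd1 (106 to 448), Ifitm2 (146 to 326) and Ifi35 (102 to 412 CPM). They were found in all libraries, including knockout replicate 4, in which the Ifit genes were at 0. Of 20 further interferon gamma targets 17 were tested and 0 passed. Psmb10, an immunoproteasome subunit named after its values were seen, had an unadjusted p of 0.0208 (176 to 297 CPM in wild type, 46.9 to 151 in knockout; adjusted p = 0.916 in edgeR). B2m, the light chain of MHC class I, ranged from 2808 to 5509 CPM in wild type and 2833 to 3902 CPM in knockout, Psmb8 from 925 to 1167 and 796 to 867 CPM, and Tapbp, which loads peptides onto class I, from 527 to 790 and 406 to 588 CPM. Psmb8 (estimate −0.31, SE 0.18) and Psmb10 were lower in knockout without overlap, 2 of the 17 tested genes of that list, beside 4.62% of all tested genes; neither passed.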

How the data were processed

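RNA-seq was done on 4 wild-type and 4 Slc7a5 knockout libraries, made with a low-input kit after column extraction, per the labels' protocols. The authors deposited raw counts per gene symbol, not normalized. HISAT2 2.1.0, featureCounts and edgeR 3.28.1, with the mm10 build, appear per the submitters' processing notes; the sources used here do not give the annotation or the strand setting, so reads of overlapping genes cannot be told apart. Isg15, Ifit1, Stat2, Usp18, Gbp2, Gbp3, Rtp4, Dhx58 and Ifi47 each overlap another RefSeq gene model.

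Computed here in R 4.3.3: filterByExpr of edgeR 4.0.16 (minimum count 10, minimum total 15), TMM scaling, and the quasi-likelihood test of edgeR (robust, genotype alone in the model), with p-values adjusted by Benjamini-Hochberg over 8489 genes (threshold 0.05). CPM used the effective library size; each SE was the absolute estimate divided by the root of its F statistic. Exon lengths and GC content came from GENCODE M21, positions and promoters from RefSeq GRCm38.p6. The libraries totalled 18837650 to 36436923 counts, and 0 columns were left out. The scripts were tested on simulated data. Members with a mean of at least 5 CPM were given by library; of the other pathway genes, those with at least 20 CPM or the 4 most abundant of a target list. One pathway gene that this rule names is not reported here. Members and lists were chosen with earlier results of these data known. Alternatives were no filter, a stricter filter (minimum count 50), 3 scalings, DESeq2 1.42.0, limma 3.58.1 voom with and without quality weights, a replicate block, each library left out and, added after the data were seen, a GC offset (loess, span 0.75).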

Additional observations from a re-analysis of the deposited data

Results flagged for a closer look

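In 7 of the 52 sets of 4 values examined (24 members and both group sums, in each genotype), 1 library lay far from the other 3. Its gap relative to the whole range was above Dixon's critical value. That value flags about 1 in 20 sets of independent, normally distributed values. CPM sets with many values of 0 are not of that kind, so 1 in 20 gives no chance rate here. The Oas1a level of 0 CPM in knockout replicate 4 lay below 29.7 to 35.5 CPM in the other knockout libraries. The Iigp1 level of 51.2 CPM in wild-type replicate 1 lay below 180 to 201 CPM in the others. The 5 other cases were single high libraries: Oas3 at 31.3 CPM in knockout replicate 3 (others up to 0.10), Oasl2 at 36.7 CPM in wild-type replicate 2 (others up to 3.39), Stat2 at 17.9 CPM in knockout replicate 3 (others up to 1.28), Usp18 at 13.8 CPM in wild-type replicate 3 (others up to 1.83) and Usp18 at 75.0 CPM in knockout replicate 1 (others up to 8.76).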

How the results depend on the processing

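Over 18 alternatives, 412 log2 fold changes of the 23 tested members were computed; 375 kept the direction of the value reported, 37 did not, and 0 passed. The members that kept it throughout were Ddx58, Gbp2, Gbp3, Gbp7, Ifi47, Ifit1, Iigp1, Rsad2, Rtp4 and Stat2. The count of genes called was 0 in edgeR (326 at an unadjusted p under 0.05), 387 in DESeq2 and 4 in limma voom with or without quality weights; of members at an unadjusted p under 0.05 there were 3 without a filter, 1 in DESeq2 (7.98%), 2 in limma voom with or without quality weights (Igtp with Stat2 or Zbp1; background 12.1% and 8.19%) and 1, Igtp, with the replicate block (3.85%). The replicate block did not rest on a shown pairing: deviations of same-numbered libraries correlated at −0.02 to 0.05, and in replicate 4 alone did each library correlate best with its own number. The block turned Isg15 to −0.94, Ifit2 to −3.49, Ifit3 to −0.12 and Oas1a to 0.032 and changed no other direction; 0 calls were there to end. Upper quartile scaling turned Isg15 to −0.0021 and library totals turned Ifit2 to −0.18 and Dhx58 to −0.042. In limma voom Isg15 was −2.07, Ifit2 −3.21 and Ifit3 −0.59, where the median of all genes was −1.28 instead of −0.12; with quality weights Isg15 was −1.74, Isg20 −0.65, Ifit2 −2.25, Ifit3 −0.45, Oas1a 0.59 and Bst2 0.16. The GC offset turned Ifit2 to −0.19, Irf7 to 0.19, Irf9 to 0.53, Bst2 to 0.64, Zbp1 to 0.43 and Igtp to 0.043, with a median over all genes of 0.16. The cause of these turns was not tested.

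With each library left out in turn, 0 genes were called, and 0 to 1 members had an unadjusted p under 0.05 (Gbp7 without knockout replicate 1, beside 7.99% of all genes, and Stat2 without knockout replicate 3, beside 10.1%). The median log2 fold change ran from −0.29 to 0.54 for the type I targets and from −0.76 to −0.38 for the GTPases, and their gap from 0.37 to 1.05. The difference of summed CPM ran from −11.2 to 134 for the type I targets and from −583 to −30.7 for the GTPases. Single estimates that turned ran from −0.80 to 0.54 (Isg15), −1.56 to 0.54 (Ifit2), −0.23 to 3.18 (Ifit3), −0.78 to 0.53 (Oas1a), −8.30 to 0.14 (Oas3), −0.31 to 0.28 (Irf9), −0.14 to 5.12 (Usp18), −0.22 to 0.12 (Bst2), −0.42 to 0.56 (Dhx58) and −0.997 to 0.20 (Zbp1). Knockout replicate 4, with 18837650 counts and 13 of the 23 tested members under 10 counts, had the lowest total of the 8.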
